A study of Homo sapiens with 197 samples.

Results

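The kinases MAP3K7, MAP3K8, MAP3K14, TBK1 and IKBKE are known activators of the transcription factor NF-kB, and their lanes were compared with the lanes of all other kinases in a screen for reactivation of tissue-restricted genes. They were picked by the kinase name in the lane title, which gave 5 lanes, or 2.73% of the kinase lanes compared and 2.54% of all lanes of the series. The comparison lanes were all other kinase lanes except the HK1 lane and the second lanes of PIK3CG and PTK2. IMR90 cells, a strain of normal human fetal lung fibroblasts, were infected in wells with retroviruses that each carried 1 genetically activated kinase from a collection of 192, and RNA was taken 4 days after infection. The kinases bear a myristoyl signal that brings them to membranes, so each lane reads an artificially activated, overexpressed kinase and not a physiological stimulus. RNA was counted with Nanostring probes, which are color-coded tags hybridized to transcripts and counted without amplification. All compared lanes share the cell line, the vector system and the time. Each of the 5 kinases had 1 lane, so that the spread among them holds differences between kinases as well as between wells, and a p-value below measures only the spread between lanes. The 3 control lanes carry 2 IMR90 sample names that the labels describe as empty vector, 1 of the names being on 2 lanes with different sample numbers. The titles do not state whether these 2 lanes hold the same RNA.

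NF-kB dimers are held in the cytoplasm by inhibitory IkB proteins and reach the nucleus once these inhibitors are phosphorylated and degraded. MAP3K7, also called TAK1, phosphorylates the IkB kinase complex downstream of TNF, interleukin-1, Toll-like and TGF-beta receptors, and it also feeds JNK and p38. MAP3K8, also called TPL2 or COT, acts mainly on the MEK/ERK cascade downstream of the TNF, interleukin-1 and Toll-like receptors, and MAP3K14, also called NIK, drives the non-canonical branch through processing of the NFKB2 precursor. TBK1 and IKBKE are IkB kinase-related enzymes best known for activating interferon regulatory factors in innate immunity.

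The panel offered little direct readout of this pathway. Of 21 NF-kB target and pathway genes on a list (among them NFKBIA, TNFAIP3, IL6, CXCL8 and CCL2), 1 had a probe, B2M. ADAM12 had a probe and was not on this list, although a role of NF-kB in its induction by TGF-beta has been reported. Probes were present for 0 of 8 interferon-response genes, 0 of 8 fibroblast markers, 0 of 4 epithelial markers and 0 of 4 immune markers, so that neither the activity of the pathway nor the labelled cell type could be read from these data. The panel had no probe for the 5 kinases themselves. It held 42 tissue-restricted genes and 15 other endogenous rows, which with B2M made 58 rows tested.

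B2M encodes beta-2 microglobulin, the invariant light chain of MHC class I molecules, and is a textbook target of NF-kB and interferon. Its promoter is shown because it carries a kappa B-type motif, and the promoter of ADAM12 because this gene gave the strongest signal in the 5 lanes. Both are the 250 bases before the RefSeq start site (GRCh38.p14), B2M at chr15:44711267-44711516 on the plus strand and ADAM12 at chr10:126388478-126388727 on the minus strand, written 5′ to 3′ in the direction of transcription. Capitals mark a match, on either strand, to the consensus kappa B motif of 10 letters.
B2M: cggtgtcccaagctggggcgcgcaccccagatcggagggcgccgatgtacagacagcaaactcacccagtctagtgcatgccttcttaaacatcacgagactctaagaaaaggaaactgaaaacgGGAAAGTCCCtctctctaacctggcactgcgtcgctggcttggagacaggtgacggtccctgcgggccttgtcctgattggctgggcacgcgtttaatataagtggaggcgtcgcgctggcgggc
ADAM12: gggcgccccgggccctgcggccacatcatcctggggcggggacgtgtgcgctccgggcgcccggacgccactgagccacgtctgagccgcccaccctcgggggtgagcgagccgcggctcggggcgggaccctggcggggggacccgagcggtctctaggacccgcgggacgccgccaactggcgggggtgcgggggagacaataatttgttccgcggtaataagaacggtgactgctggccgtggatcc
In B2M the match reads GGAAAGTCCC, which is GGGACTTTCC on the opposite strand, and no match was found in this window of ADAM12. The motif was found in 9.95% of 34943 RefSeq promoter windows of this length. A match is a description of letters and says nothing of binding, and neither does its absence.

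Counts of a lane were brought to 1 scale with its positive-control probes and its housekeeping genes PGK1, TBP and TUBB2A (geometric mean), and are called normalized counts. Total counts of the 5 lanes were 195732 for MAP3K7, 197978 for MAP3K8, 140613 for MAP3K14, 133546 for TBK1 and 187599 for IKBKE, beside 29629 to 340763 in the other lanes. The negative-control level of a lane was the mean plus 2 SD of its 8 negative probes. Over all compared lanes, 17 of the 58 rows had a median count above the median of this level and 41 did not, among the latter 38 of the 42 tissue-restricted genes. Across all 58 rows, 2 were called higher and 2 lower in the 5 lanes at an adjusted p under 0.05 (edgeR, quasi-likelihood test), which is 6.9% of the rows, with 3.45% in each direction. Scaled by the positive controls alone, 2 rows were higher and 0 lower. That scaling raised the median log2 difference over all rows by 0.14, from -0.20 to -0.07. A rank given below is over all compared kinase lanes, the 5 included. With bulk RNA, fewer expressing cells and less RNA per cell cannot be told apart.

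ADAM12, a membrane metalloprotease with high expression in placenta, was called higher in the 5 lanes, and the MAP3K7 lane carried the difference. It stood at 503.5 normalized counts with MAP3K7, 72.7 with MAP3K8, 52.6 with MAP3K14, 65.2 with TBK1 and 44.6 with IKBKE, against a median of 44.8 and a range of 26.2 to 103.2 in the other lanes. The MAP3K7 lane lay alone above every other lane, MAP3K8 was the 5th highest and TBK1 the 13th highest, MAP3K14 was the 43rd and IKBKE the 96th. The 3 control lanes read 35.01, 46.8 and 30.8. In raw counts the MAP3K7 lane had 686 (95% Poisson interval 636 to 739, counting error only), and MAP3K8 had 56 (42.3 to 72.7).

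The next lanes in order for ADAM12 were PIP5K2A at 103.2 and GRK5 at 74.4. PIP5K2A had the lowest total count, 29629, and the largest scaling factor, 6.07, of the compared lanes. On the log2 scale, MAP3K7 lay 11.08 SD of the other lanes above their mean, MAP3K8 2.18, TBK1 1.68 and MAP3K14 0.70, and IKBKE lay at -0.04.

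As a group, the 5 lanes had an ADAM12 log2 difference of 1.69 (SE 0.14, edgeR adjusted p = 4.37e-23). This value rested on MAP3K7. Without that lane the difference was 0.34 with an edgeR adjusted p of 0.540. An exact rank permutation test, which gives the MAP3K7 lane no more weight than its rank, found p = 0.00672 (two-sided), and 0.349 after adjustment over the 58 rows. Without MAP3K7 its p was 0.0382 for a mean log2 difference of 0.35, before adjustment. The rank test called 0 of 58 rows after adjustment and had 6 rows at an unadjusted p under 0.05, while the smallest p this design allows is 1.24e-09.

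**Figure D1:**
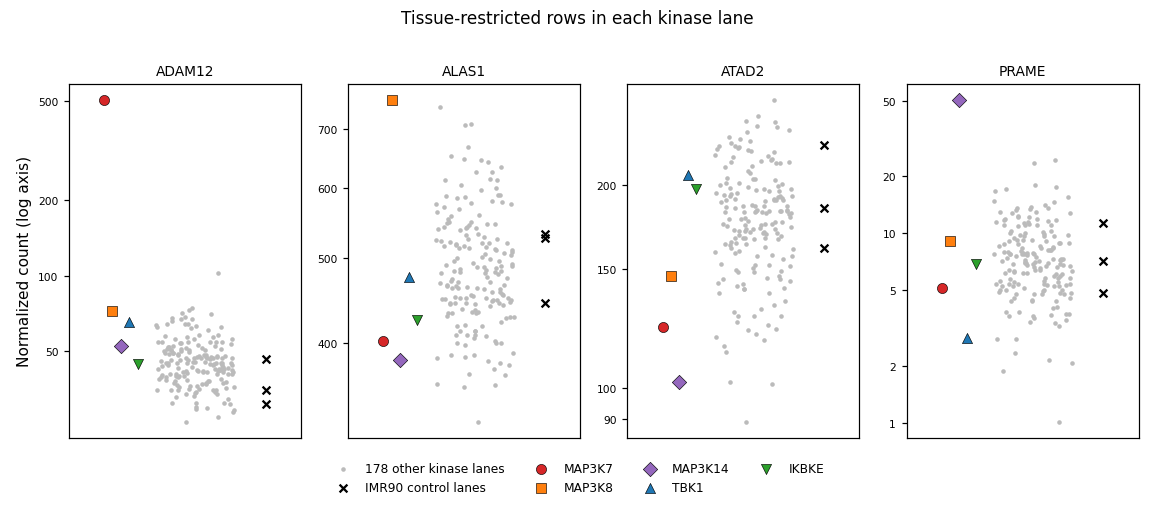
Normalized counts (log axis) of ADAM12, ALAS1, ATAD2 and PRAME in each lane, with a colored symbol for each of the 5 kinases, gray points for the other kinase lanes and crosses for the 3 IMR90 control lanes. MAP3K7 stands alone for ADAM12 at 503.5 and MAP3K14 for PRAME at 50.6, while the other symbols fall within the gray points except ALAS1 in MAP3K8 at 755.6.

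PRAME, a cancer/testis antigen first described in melanoma, was the other row called higher. It stood at 5.14 normalized counts with MAP3K7, 9.09 with MAP3K8, 50.6 with MAP3K14, 2.79 with TBK1 and 6.92 with IKBKE, against a median of 7.19 and a highest value of 24.3 (HK3) in the other lanes. MAP3K14 was thus the highest of the compared lanes and was the only one of the 5 above its negative-control level, which was 20.8. Its raw count was 52 (95% Poisson interval 38.8 to 68.2), against a mean of 6.75 for the negative-control probes of that lane.

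The group difference for PRAME was 0.94 on the log2 scale (SE 0.25, edgeR adjusted p = 0.00888). It rested on MAP3K14 alone, and without this lane it was -0.37 with an edgeR adjusted p of 0.415. In the exact rank permutation test the adjusted p for PRAME was 0.934. The 3 control lanes read 4.86, 7.12 and 11.3.

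ALAS1, the rate-limiting enzyme of heme synthesis, was at 402.2 normalized counts with MAP3K7, 755.6 with MAP3K8, 382.5 with MAP3K14, 475.1 with TBK1 and 425.4 with IKBKE. The MAP3K8 lane was the highest, just above FASTK at 740.9, and the other 4 lanes lay below the median of the other lanes, 481.5. The MAP3K8 lane lay above the mean of the other lanes in 12 of the 17 rows above the negative-control level. A high value in it was thus not particular to ALAS1. The group difference was -0.01 (SE 0.10, edgeR adjusted p = 0.980).

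ATAD2, a bromodomain ATPase linked to proliferation, was at 123.3 normalized counts with MAP3K7, 146.7 with MAP3K8, 102.2 with MAP3K14, 206.8 with TBK1 and 196.9 with IKBKE, against a median of 178.9 in the other lanes. MAP3K14 was the 4th lowest and TBK1 and IKBKE lay above the median. The group difference was -0.21 (SE 0.13, edgeR adjusted p = 0.418). PLCZ1, a sperm phospholipase that is the remaining tissue-restricted gene with a median count above the level, was at 16.1, 27.3, 45.7, 20.5 and 14.6 in the same order of lanes, with a median of 26.6 in the others, and did not pass the test (-0.24, edgeR adjusted p = 0.607).

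Of the 42 tissue-restricted genes, 2 were called higher (ADAM12 and PRAME) and 0 lower, beside the 3.45% of all rows called in each direction. The log2 difference was above 0 for 3 of the 42 and below 0 for 39, with a median of -0.25, against 7 above and 51 below 0 and a median of -0.20 over all 58 rows. The 5 MAGE genes, cancer/testis antigens of the X chromosome, had 1 difference above 0 and 4 below, a median of -0.08 and 0 calls. The 7 other cancer/testis antigens (PRAME, CTAG1B, XAGE1, XAGE3, FMR1NB, SSX1 and SSX2) had 1 above 0, which is PRAME, 6 below, and a median of -0.43. Besides ADAM12 and PRAME, the log2 differences furthest from 0 were -0.93 for BRDT, -0.84 for TPTE and -0.76 for RBM46, all germ-cell genes at the negative-control level, with edgeR adjusted p of 0.198, 0.198 and 0.273.

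The weak rows differed among the 5 lanes. The median normalized count of the 38 weak tissue-restricted rows was 5.87 with MAP3K7, 14.3 with MAP3K8, 10.2 with MAP3K14, 4.66 with TBK1 and 5.0 with IKBKE, against a median of 9.85 and a range of 4.80 to 19.3 in the other lanes. TBK1 lay below all other lanes and MAP3K8 lay toward the upper end, while the 3 control lanes read 4.86, 7.12 and 6.68. The scaling factors of the lanes, in the same order, were 0.734, 1.30, 0.973, 0.932 and 0.769, and the normalized means of the negative-control probes were 9.08, 10.2, 6.57, 8.62 and 8.85. MAP3K14 had the lowest negative-control mean of the 5 and the 2nd highest weak-row median, and TBK1 had the lowest weak-row median at a scaling factor close to that of MAP3K14. The part of scaling and background in these values was not tested.

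**Figure D2:**
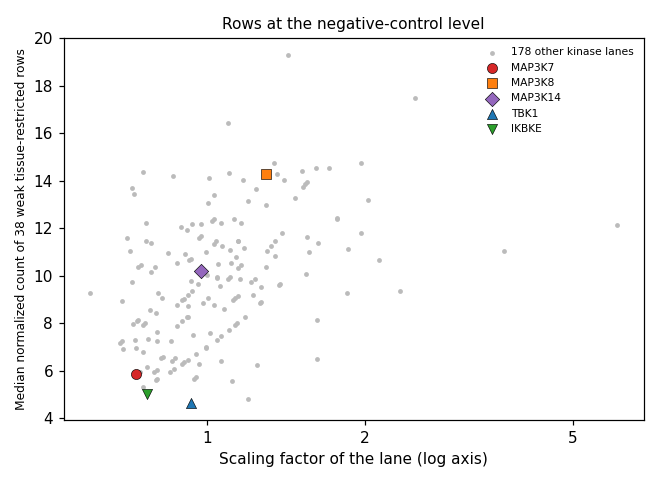
Median normalized count of the 38 weak tissue-restricted rows of a lane against the scaling factor of that lane (log axis), with 1 point per lane. MAP3K7, TBK1 and IKBKE lie at the lower edge with 5.87, 4.66 and 5.0, MAP3K14 lies in the middle at 10.2, and MAP3K8, with a scaling factor of 1.30, is at 14.3.

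The number of tissue-restricted genes above the negative-control level of the lane was 3 with MAP3K7, 6 with MAP3K8, 11 with MAP3K14, 4 with TBK1 and 3 with IKBKE, against a median of 6 and a range of 3 to 23 in the other lanes. Counting the rows above the level in that lane alone, MAP3K14 had ADAM2, DDX4, DDX53, FMR1NB, HORMAD1, PRAME and SPATA22 in addition to ADAM12, ALAS1, ATAD2 and PLCZ1. MAP3K8 had MAEL, MAGEA12 and ROPN1 in addition to ADAM12, ALAS1 and ATAD2. These rows were chosen after their values were seen. HORMAD1, a meiotic chromosome protein, reached 31.1 normalized counts with MAP3K14, the 3rd highest. In the MAP3K8 lane MAGEA12 at 33.8 and ROPN1, a sperm protein, at 38.9 were the highest, from raw counts of 26 and 30. That lane lay above the mean of the other lanes in 41 of all 58 rows, so high values there were not particular to these genes.

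B2M, the only gene of the NF-kB list with a probe, was high in 1 of the 5 lanes. It stood at 30682 normalized counts with MAP3K7, 30105 with MAP3K8, 68431 with MAP3K14, 32853 with TBK1 and 34168 with IKBKE, against a median of 39749 and a range of 23138 to 95392 in the other lanes. MAP3K14 was the 19th highest, and the other 4 lay below the median of the other lanes but well inside their range. The control lanes read 34514, 42381 and 36811.

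The mean log2 difference of B2M between the 5 lanes and the others was -0.15 (exact rank permutation test, two-sided p = 0.247). Without MAP3K14, the highest of the 5 lanes, it was -0.37 (exact rank permutation test, unadjusted p = 0.0424). Leaving out the highest lane lowers the mean by construction, so no conclusion is drawn from this p. With scaling by the positive controls alone and all 5 lanes, the difference was 0.00 (p = 0.749 in the same exact test). The edgeR difference was -0.15 (SE 0.22, adjusted p = 0.690), with a 95% interval of -0.59 to 0.29.

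**Figure D3:**
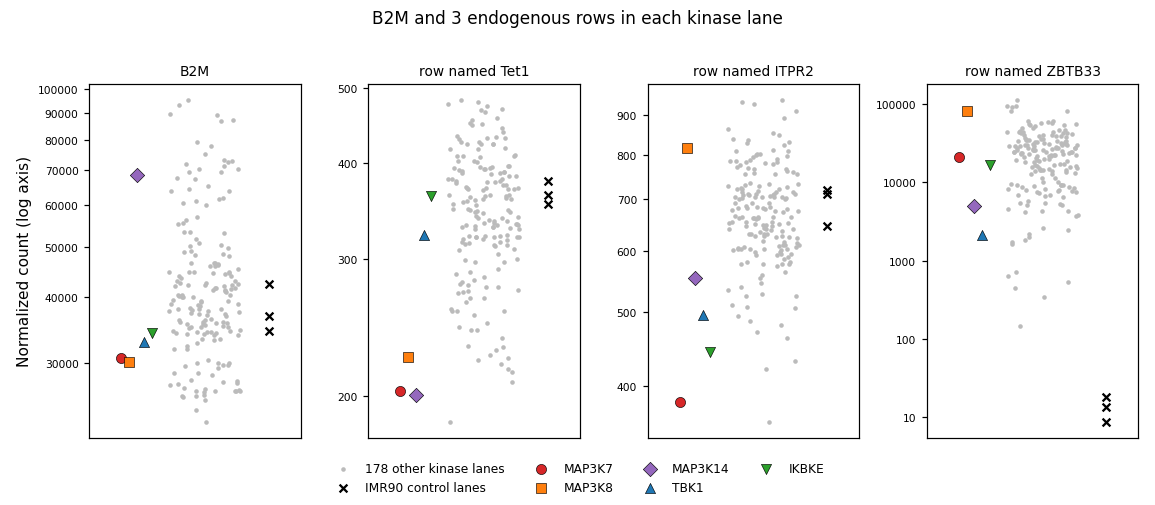
Normalized counts (log axis) of B2M and of the endogenous rows that the files name Tet1, ITPR2 and ZBTB33, with symbols as for the tissue-restricted genes. MAP3K14 is high for B2M at 68431, the 3 MAP3K lanes lie near the bottom for the row named Tet1 at 200.5 to 224.6, and the row named ZBTB33 separates all kinase lanes from the 3 controls at 8.75 to 18.3.

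The housekeeping genes used as normalizers were compared on the positive-control scale. TUBB2A, a beta-tubulin, was at 5082 with MAP3K7, 3107 with MAP3K8, 8819 with MAP3K14, 5635 with TBK1 and 4878 with IKBKE, against a median of 4225 and a highest value of 7571 in the other lanes. MAP3K14 lay above all of them and MAP3K8 below the median. The mean log2 difference was 0.31 for TUBB2A, 0.21 for the glycolytic enzyme PGK1 and -0.05 for the TATA-binding protein TBP (exact rank permutation test, adjusted p = 0.169, 0.393 and 0.632). Another scaling used the total of the endogenous rows without those named MyrFlag, NeoR, PuroR, ZBTB33 and ZBTB38. With it the differences were 0.25, 0.15 and -0.11 (same exact test, adjusted p = 0.0550, 0.204 and 0.0550).

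Without MAP3K8, the lowest of the 5 lanes for TUBB2A, its difference on the positive-control scale was 0.50 with an adjusted p of 0.00256 in the same exact test. The adjusted p was 0.479 without MAP3K7, 0.394 without MAP3K14, 0.287 without TBK1 and 0.365 without IKBKE. Without MAP3K14 the difference was 0.12. Leaving out the lowest lane raises the mean by construction, so no conclusion is drawn from that setting. PGK1 was also high in the MAP3K14 lane at 16769, against a median of 9340 and a highest value of 17085 in the other lanes. TBP in that lane was at 501.0, against a median of 421.3. After scaling by all 3, TBP was lower in MAP3K14 than in any other compared lane (314.4 normalized counts) and TUBB2A was the 2nd highest (5533), so the normalizers did not move together in this lane. Nor did they in the TBK1 lane, where TUBB2A was the highest of the compared lanes (5558) and PGK1 the 2nd lowest (8559). The remaining lanes also had a normalizer near the low end. TBP was the 3rd lowest with MAP3K7 (365.5) and the 5th lowest with IKBKE (370.0), and TUBB2A the 5th lowest with MAP3K8 (3748).

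Among the 15 other endogenous rows, the values of the rows named MyrFlag and ZBTB33 go against their names, and all 15 are given here under the names in the files with no gene role attached. The row named MyrFlag, a tag that the kinases carry, was at 665.2, 714.2 and 626.9 in the control lanes, close to the median of 637.7 in the other kinase lanes. The row named ZBTB33 was at 8.75, 18.3 and 13.4 in the controls and at a median of 22687 in the other kinase lanes. Which probes these rows hold could not be settled from the files.

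In the 5 lanes the row named ZBTB33 was at 21232 with MAP3K7, 80430 with MAP3K8, 5043 with MAP3K14, 2125 with TBK1 and 16690 with IKBKE. All 5 lay above the controls and inside the range of the other kinase lanes, 146.8 to 112422, with MAP3K8 the 7th highest and TBK1 the 11th lowest. The row named ZBTB38 ran in the same order, from 1111 with TBK1 to 42960 with MAP3K8, but its control lanes read 1591, 7039 and 1774, so that TBK1 lay below all 3 controls and MAP3K14, at 2195, below 1 of them. MAP3K7, the lane with high ADAM12, was the 98th highest for the row named ZBTB33, and MAP3K14, the lane with high PRAME, was the 21st lowest. HK2, the highest of the other lanes for MAGEA12 and ROPN1, was the 2nd highest for the row named ZBTB33. A link between this row and the weak rows was not tested.

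The row named Tet1 was called lower. It was at 202.6 normalized counts with MAP3K7, 224.6 with MAP3K8, 200.5 with MAP3K14, 322.3 with TBK1 and 362.3 with IKBKE, against a median of 346.8 and a range of 184.9 to 482.1 in the others. The 3 MAP3K lanes were the 3rd, 10th and 2nd lowest in that order, and TBK1 and IKBKE lay in the middle. The group difference was -0.40 (SE 0.13, edgeR adjusted p = 0.0414).

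The row named ITPR2 was also called lower. It was at 381.7 with MAP3K7, 816.6 with MAP3K8, 552.8 with MAP3K14, 494.7 with TBK1 and 443.9 with IKBKE, against a median of 663.5, so that 4 lanes were low and MAP3K8 was the 14th highest. Its group difference was -0.33 (SE 0.11, edgeR adjusted p = 0.0414). Neither of these calls passed with the positive controls alone, where the differences were -0.24 (edgeR adjusted p = 0.639) and -0.18 (edgeR adjusted p = 0.870), and neither passed without the MAP3K7 lane (edgeR adjusted p = 0.540 for both). The call of the row named Tet1 was also lost without MAP3K8 (edgeR adjusted p = 0.0787) or MAP3K14 (0.138), and that of the row named ITPR2 without MAP3K14 (edgeR adjusted p = 0.0620), TBK1 (0.191) or IKBKE (0.371).

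Each lane was also described by the number of rows in which it departed from the other lanes. Of the 17 rows above the negative-control level, 5 lay more than 2 SD from the mean of the other lanes with MAP3K7, 5 with MAP3K8 and 5 with MAP3K14, against 0 with TBK1 and 1 with IKBKE. Among the other lanes the median was 0 rows and the maximum 9, and 6 of them (3.37%) had 5 or more. The directions differed. MAP3K7 had 1 row above and 4 below, MAP3K8 4 above and 1 below, and MAP3K14 0 above and 5 below. These distances hold for normalized counts, and the normalizers PGK1 and TUBB2A were high in the MAP3K14 lane on the positive-control scale. Whether its 5 rows stay low on that scale was not tested. Over all 58 rows, the numbers were 10 with MAP3K7, 10 with MAP3K8, 11 with MAP3K14, 6 with TBK1 and 10 with IKBKE. Of these, 9 with IKBKE and all 6 with TBK1 were low values among the 41 rows at the negative-control level. From those 41 rows came 5 with MAP3K7, 5 with MAP3K8 and 6 with MAP3K14, in either direction. The count over 58 rows was not made for the other lanes. In the MAP3K8 lane, ADAM12 at 2.18 SD was among the rows close to the limit. With 1 lane per kinase these counts have no replicate check.

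In the MAP3K14 lane the row named Tet3, at 1451 normalized counts, was the lowest, and the rows named MyrFlag, Tet1 and UHRF1 were each the 2nd lowest. On the positive-control scale this lane had PGK1 at 16769 and TUBB2A at 8819, against medians of 9340 and 4225 in the other lanes. Scaling by these genes lowers the other values of the lane, since all rows of a lane move by the same ratio. PGK1 in this lane went from 16769 on the positive-control scale to 10522 normalized counts. Its median in the other lanes went from 9340 to 9737. The ranks on the positive-control scale were not tested. The same limit holds for the low rank of ATAD2 in this lane. The row named DNMT1 was the highest in the MAP3K14 lane at 35.04 and the lowest in the MAP3K7 lane at 6.61, but its median count was below the negative-control level, and it was picked after its values were seen.

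**Figure D4:**
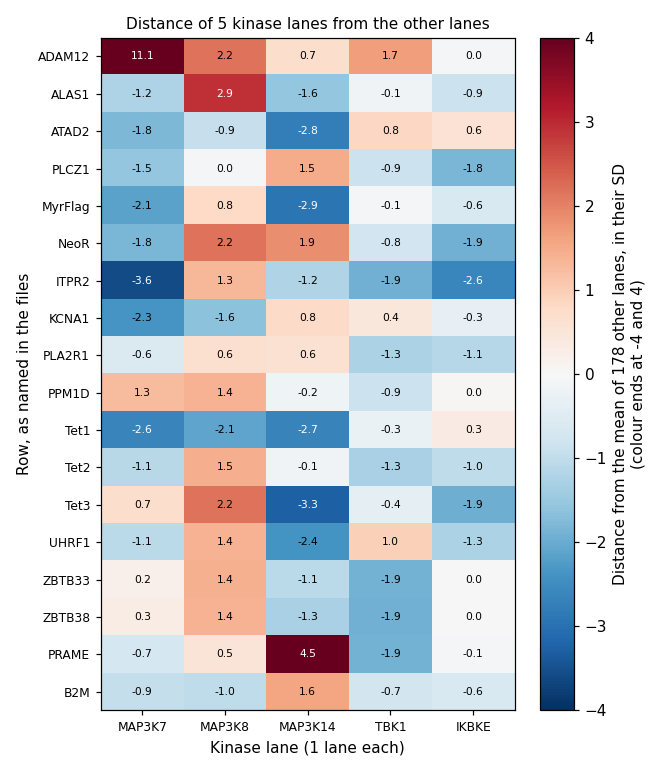
Distance of each of the 5 lanes from the mean of the other lanes, in SD of their log2 values, for the endogenous rows above the negative-control level, PRAME and B2M, with red for higher and blue for lower and color ending at -4 and 4. ADAM12 with MAP3K7 (11.08) and PRAME with MAP3K14 (4.51) are the 2 largest positive values, and the row named Tet1 is below -2 in the 3 MAP3K lanes and near 0 in TBK1 and IKBKE.

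To take slow drifts along the series into account, each lane was set against the other kinase lanes within 6 sample numbers, and a lane within reach of 2 of the 5 counted for the nearer one only. MAP3K7, TBK1 and IKBKE were early in the series, at sample numbers 5, 18 and 47, and MAP3K8 and MAP3K14 were late and so close to each other that lanes between them were split. Folds over neighbours are given on the scale of normalized count + 1, against the geometric mean of the neighbours. In all, 47 lanes were neighbours. The titles give these numbers as sample numbers and do not say that they mark a batch. With the neighbourhood as a block, 2 of 58 rows were called higher and 2 lower (6.9% in all, edgeR), and the 5 lanes are the same as in the comparison with all lanes, so that it gives no independent evidence.

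For ADAM12, MAP3K7 was 11.96-fold its neighbours, which ranged from 34.6 to 48.4 normalized counts, MAP3K8 1.78-fold, MAP3K14 1.36-fold, TBK1 1.25-fold and IKBKE 1.07-fold. MAP3K7, MAP3K8 and TBK1 lay above all of their neighbours. The blocked difference was 1.60 (SE 0.22, edgeR adjusted p = 1.40e-07), and without the MAP3K7 neighbourhood it was 0.40 (edgeR adjusted p = 0.121).

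For PRAME, MAP3K14 at 50.6 normalized counts lay above all of its neighbours, which ranged from 1.01 to 11.4 and thus below the negative-control level of 20.8 in the MAP3K14 lane, so no fold is given. The other 4 lanes were at 2.79 to 9.09. The blocked difference of 0.97 (SE 0.30, edgeR adjusted p = 0.0339) became -0.19 without the MAP3K14 neighbourhood (edgeR adjusted p = 0.708).

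ATAD2 was called lower against neighbours, with a blocked difference of -0.29 (SE 0.09, edgeR adjusted p = 0.0339). MAP3K7 was 0.66-fold, MAP3K8 0.84-fold and MAP3K14 0.63-fold, each below all of its neighbours, while TBK1 was 0.95-fold and IKBKE 1.04-fold. The row named Tet1 had the same split, with 0.64-fold, 0.60-fold and 0.67-fold in the 3 MAP3K lanes, each below all of its neighbours, and 0.92-fold and 1.02-fold in TBK1 and IKBKE. Its blocked difference was -0.39 (SE 0.11, edgeR adjusted p = 0.0152). The MAP3K14 folds of ATAD2 and of the row named Tet1 carry the scaling limit given above for that lane. Neither call passed with the positive controls alone (edgeR adjusted p = 0.967 for ATAD2 and 0.837 for the row named Tet1), nor without the MAP3K7, MAP3K8 or MAP3K14 neighbourhood in turn (edgeR adjusted p of 0.0724 or more). The row named ITPR2 did not pass against neighbours (-0.27, edgeR adjusted p = 0.0970).

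For B2M, MAP3K14 was 2.21-fold its 9 neighbours, which ranged from 24422 to 48376, and lay above all of them. MAP3K8 was 1.10-fold and also above its 9 neighbours, which were low as a set, from 25420 to 30026, while MAP3K7 was 0.74-fold, TBK1 0.90-fold and IKBKE 0.85-fold. The mean log2 difference over the 5 was 0.09 (exact sign-flip permutation test, p = 0.9375, where 0.0625 is the smallest p that 5 lanes allow). Without MAP3K14 it was -0.17 (p = 0.25, with 0.125 the smallest that 4 lanes allow in this exact test).

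**Figure D5:**
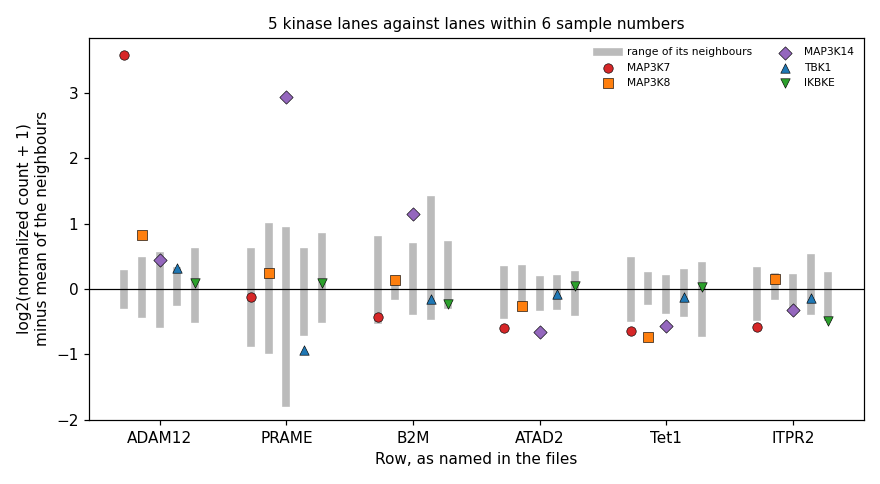
Difference of each of the 5 lanes from the mean of its neighbours within 6 sample numbers, on the scale of log2(normalized count + 1), for 6 rows, with gray bars for the range of those neighbours. MAP3K7 lies at 3.58 for ADAM12 and MAP3K14 at 2.94 for PRAME and 1.14 for B2M, while the 3 MAP3K lanes lie below their bars for ATAD2 and for the row named Tet1.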

How the data were processed

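Total RNA of IMR90 wells was counted on a Nanostring panel of 75 probes per lane. The files deposited by the authors hold, for each lane, raw counts as the instrument gave them. A series table by the authors holds scaled values, a signal in which 1 of the compared lanes, PIP5K2A, is unscaled, and it served only as an alternative. Lanes were grouped by the kinase in the title into 5 lanes and 178 other kinase lanes, so 183 of 197 lanes were compared.

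Counts were scaled by the 6 positive-control probes and then by the housekeeping genes PGK1, TBP and TUBB2A (geometric mean). The second step cancels the first, because each is 1 factor per lane. Counts of 58 rows (57 endogenous rows and B2M) were tested in R 4.3.3 with edgeR 4.0.16, with these factors as offset and Benjamini-Hochberg adjustment over all rows. Neighbours were other kinase lanes within 6 sample numbers of 1 of the 5 (of the nearer where 2 were in reach, and of the lower on a tie), with the neighbourhood as a block. Single values were compared by exact permutation tests, two-sided, on log2(normalized count + 1), in Python 3.11.15 (scipy 1.17.1). limma 3.58.1, DESeq2 1.42.0, other normalizers, a filter on weak rows and each of the 5 lanes left out were alternatives. On simulated counts of these rows, the comparison with all other lanes recovered 97% of 200 rows changed 4-fold, with 3.96% of calls false, and the comparison with neighbours 96%, with 4.48% false. The 200 were drawn from the 58 rows over 20 sets, and each change was given to all 5 lanes alike. These shares therefore do not cover calls that rest on 1 lane. Of 46 accessions of tissue-restricted and housekeeping probes, 44 were found in RefSeq (GRCh38.p14), whose promoters were used.

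Rows were named by rule: B2M, ADAM12, ALAS1, ATAD2, PRAME, the rows MyrFlag and ZBTB33, the normalizers, rows past the threshold, the 5 largest differences, and rows above the negative-control level in which 1 of the 5 lanes is highest or lowest. The 5 kinases, the lists and the rules were chosen with earlier results of these data known. Subtracting or scaling by the negative controls, and leaving out lanes in the rank test of ADAM12, were added after seeing the data.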

Additional observations from a re-analysis of the deposited data

Results flagged for a closer look

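In 2 of 18 rows examined, the highest of the 5 lanes stood far from the other 4, by the gap to its nearest lane as a share of the whole range on the scale of log2(normalized count + 1). Chance sets apart about 1 group in 20 when all 5 values come from 1 distribution, which lanes of 5 different kinases need not share. For ADAM12 the MAP3K7 lane was set apart by 0.800 of the range (503.5 normalized counts against 72.7 for the next lane, MAP3K8). For B2M the MAP3K14 lane was set apart by 0.846 of the range (68431 against 34168 for the next lane, IKBKE).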

How the results depend on the processing

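No paired analysis was possible because each kinase had 1 lane and the lanes compared share no replicate number from the labels. Against all other lanes, the 2 rows called higher became 0 in the exact rank test (6 rows at an unadjusted p under 0.05). DESeq2 on the same factors called 0 rows higher and gave ADAM12 and PRAME no p, with log2 differences of 1.70 and 0.95 (7 other rows had an unadjusted p under 0.05). MAP3K7 lay 11.08 SD above the mean of the other lanes for ADAM12, and MAP3K14 4.51 SD for PRAME. Why the p was missing was not examined, so this setting does not count as keeping either call. The 2 rows called higher became 1, ADAM12, with limma, with limma at a pseudocount of 10, on the deposited table, with only the rows above the negative-control level, and after subtracting the negative controls. The 2 rows called lower became 1 without PGK1 among the normalizers. They became 0 with the positive controls alone (edgeR, 4 rows at an unadjusted p under 0.05), with all 4 housekeeping genes (8 rows), without TUBB2A (7 rows), with TMM factors (4 rows), with DESeq2 on the same factors (7 rows) or its own (6 rows), on the deposited table with limma (7 rows), when scaled by the negative controls (2 rows), and in the exact rank test (6 rows). Leaving out each of the 5 lanes gave 1 to 2 rows higher and 0 to 7 lower. The 7 came without MAP3K8 (C10ORF82, ROPN1, SSX2, TPTE and the rows named MyrFlag, PuroR and ITPR2), 3 other rows came without MAP3K14 (CTCFL, DDX53 and FMR1NB), and 0 without MAP3K7. Against neighbours, the 2 rows higher became 1 with a window of 3 and 1 with limma, and 0 to 2 when a lane and its neighbours were left out. The 2 rows lower became 0 with a window of 3, 0 with the positive controls alone, 1 without the block, and 0 to 2 when a lane was left out. Without the MAP3K8 neighbourhood the 2 were TPTE and the row named ITPR2. PRAME turned to -0.37 against all lanes and -0.19 against neighbours without MAP3K14, and reached 1.203 and 1.22 without TBK1. ATAD2 turned to 0.15 with DESeq2 on its own size factors, a scaling that raised the median of all rows by 0.22. For B2M the edgeR difference turned to 0.11 with the positive controls alone, 0.12 with DESeq2 on its own size factors, 0.025 when scaled by the negative controls, and, against neighbours, from 0.13 to -0.21 without MAP3K14 (up to 0.26 without MAP3K7). Its mean difference in the exact rank test turned to 0.0012 with the positive controls alone and ran from -0.37 to -0.078 when a lane was left out. Against neighbours it ran from -0.17 to 0.22. The TUBB2A difference ran from 0.12 to 0.50. The causes were not tested. Rows at the negative-control level, 41 of 58, rest on few counts, so small differences there may not have been detectable at this depth.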
